A study of Homo sapiens with 4 samples.

Results

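The thrombospondins are a family of 5 secreted glycoproteins, encoded by *THBS1*, *THBS2*, *THBS3*, *THBS4* and *COMP*, and their RNA was measured in DAOY, an established human medulloblastoma cell line. The members were taken by symbol, and all 5 were among the 20363 genes of the count table. Of these, 14970 genes had at least 10 counts in at least 2 libraries and were tested, among them every member except *COMP*. The libraries were ZNF521_SAG, ZNF521_DMSO, CTL_SAG and CTL_DMSO, 1 for each condition, so that no condition had a replicate. ZNF521 cells carried a lentiviral vector that drives *ZNF521*, a zinc finger co-factor of transcription, from a ubiquitin promoter, and the study calls human and mouse versions of this gene by the same name. CTL cells were wild type by the deposited description, whereas a legend of the paper gives them the empty vector, so that transduction and *ZNF521* cannot be told apart if the description holds. SAG, an agonist of the Hedgehog receptor component SMO, was given for 48 h after 24 h of starvation by the general methods, and DMSO was its vehicle. A dose of 200 nM is stated for transduced DAOY cells in a quantitative PCR experiment, and neither this dose nor these times are tied to the sequenced cells in the sources used here. All groups share the DAOY background, a cultured tumour line without the other cells of the cerebellum. In RNA from a whole culture, fewer cells of a type and less RNA per cell cannot be told apart.

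Thrombospondins sit between cells and the extracellular matrix, where they bind receptors, proteases, growth factors and collagens. *THBS1* and *THBS2* encode the trimeric members, which carry type 1 repeats, bind the receptors CD36 and CD47 and restrain the growth of blood vessels. THBS1 protein can also release active TGF-beta from its latent complex. *THBS3*, *THBS4* and *COMP* encode pentameric members that lack type 1 repeats. COMP is the cartilage oligomeric matrix protein, and THBS4 is known from tendon, muscle and astrocytes.

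The 5 genes lie on different chromosomes of hg38. *THBS1* (ENSG00000137801.11) spans 39581079 to 39599466 on the plus strand of chromosome 15, and *THBS2* (ENSG00000186340.17) spans 169215780 to 169254050 on the minus strand of chromosome 6. *THBS3* (ENSG00000169231.13) lies on chromosome 1 (155195588 to 155209051, minus), *THBS4* (ENSG00000113296.14) on chromosome 5 (79991311 to 80083287, plus) and *COMP* (ENSG00000105664.11) on chromosome 19 (18782773 to 18791305, minus). The promoters of *THBS1* and *THBS2* are shown because these were the members that were lower in both ZNF521 libraries. Each run holds the 250 bases before the transcription start (RefSeq, GRCh38.p14), with matches to short motifs in capitals. The RefSeq start of *THBS2* lies inside the GENCODE span given above, so that most of its window is within that span.

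THBS1, chr15:39580829-39581078, plus strand: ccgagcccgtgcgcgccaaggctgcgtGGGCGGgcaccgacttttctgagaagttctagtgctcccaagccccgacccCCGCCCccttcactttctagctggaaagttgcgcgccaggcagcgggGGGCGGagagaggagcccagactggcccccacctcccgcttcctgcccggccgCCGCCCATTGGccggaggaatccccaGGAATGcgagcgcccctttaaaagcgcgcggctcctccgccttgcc
THBS2, chr6:169253847-169254096, minus strand: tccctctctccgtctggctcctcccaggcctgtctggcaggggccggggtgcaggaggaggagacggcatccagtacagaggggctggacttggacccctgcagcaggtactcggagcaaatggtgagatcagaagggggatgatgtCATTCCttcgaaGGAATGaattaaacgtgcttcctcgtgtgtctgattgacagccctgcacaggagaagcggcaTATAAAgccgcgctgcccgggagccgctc

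The capitals mark the TATA box TATAAA (sense strand only) and, on both strands, the GC box GGGCGG, the CCAAT box CCAAT and GGAATG, the core that TEAD factors bind. No marked match overlapped another, although a GC box and the CCAAT box of *THBS1* are adjacent. *THBS2* held a TATA box from base -29 to -24, a motif found in 6.80% of the 35116 promoters of the same length, while *THBS1* had no match to it. *THBS1* held 4 GC boxes, a motif in 42.6% of promoters, and 1 CCAAT box, found in 32.0%. The core GGAATG occurred once in *THBS1*, from -46 to -41, and in both orientations in *THBS2*, from -103 to -98 and from -91 to -86, and 11.9% of all promoters held it at least once. The GLI consensus GACCACCCA, which 0.199% of promoters hold, matched none of the 7 promoter windows listed for the 5 genes, and nothing follows from this for sites elsewhere. Promoter GC content was 69.6% in *THBS1* and 60.0% in *THBS2*.

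*THBS1* was by far the most abundant member. Counts divided by the deposited size factors, called normalized counts below, averaged 1518 for *THBS1* over the 4 libraries, which placed it 2062nd among all genes. To compare genes, normalized counts were divided by the length of the merged exons in kb. On this scale the mean level was 165.7 for *THBS1*, 67.9 for *THBS4*, 44.7 for *THBS3*, 26.8 for *THBS2* and 2.28 for *COMP*. These levels lay at percentiles 81.5, 64.9, 57.3, 49.3 and 22.1 of all genes with a gene model. The order of the means was the same over the longest annotated transcript. *THBS3* was above *THBS2* in each of the 4 libraries, although their ranges over the libraries overlapped, with a level per kb between 37.3 and 52.6 for *THBS3* and between 16.2 and 42.2 for *THBS2*. *THBS1* made up 51.9% of the summed level of the family per kb in ZNF521_SAG, 45.5% in ZNF521_DMSO, 54.9% in CTL_SAG and 59.4% in CTL_DMSO. The share of *THBS2* was 6.71% and 6.45% in ZNF521_SAG and ZNF521_DMSO, against 10.4% and 10.1% in CTL_SAG and CTL_DMSO.

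**Figure D1:**
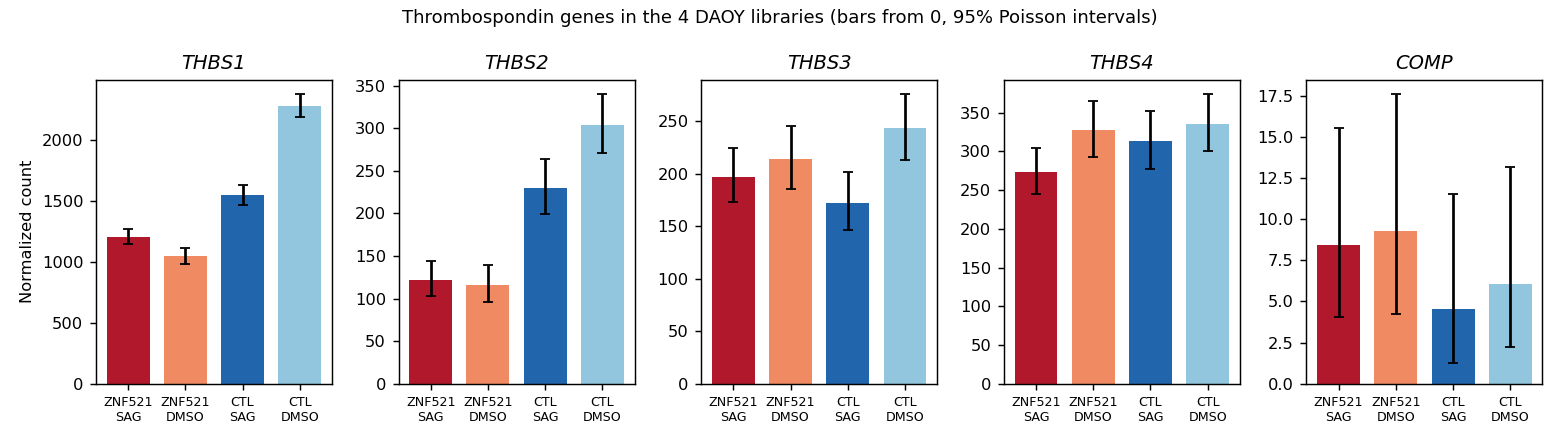
Normalized counts of the 5 thrombospondin genes, 1 bar per library, with exact 95% Poisson intervals of the count, which cover counting error only. *THBS1* (1203 and 1045) and *THBS2* (122.3 and 116.3) were lower in the ZNF521 libraries than in the CTL libraries (1547 and 2276 for *THBS1*, 230.1 and 303.6 for *THBS2*).

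The depth of the libraries was similar, with total counts between 12294833 and 16314685. The targeted gene followed the labels, with 2072 and 2013 normalized counts of *ZNF521* in ZNF521_SAG and ZNF521_DMSO, against 751.1 and 713.7 in CTL_SAG and CTL_DMSO. *GLI1*, the Hedgehog target that SAG is known to induce, stood at 318.1 and 323.7 in ZNF521_SAG and CTL_SAG, against 44.2 and 75.4 in ZNF521_DMSO and CTL_DMSO. CTL_DMSO stood apart from the other libraries. The SD of its log2 deviations over 9161 genes was 0.273, against 0.126 to 0.142 in the others. Of 11 markers of the cerebellar granule lineage and medulloblastoma, 6 had a mean of at least 50 normalized counts, whereas *ATOH1* and *BARHL1*, which define granule cell precursors, had at most 3 counts in any library. Of 9 markers of mesenchymal cells, 7 had a mean of at least 50, and their summed normalized count was 23456 in ZNF521_SAG, 24622 in ZNF521_DMSO and 25837 in CTL_SAG, against 49105 in CTL_DMSO. Most of this sum came from the collagen genes *COL1A1*, *COL1A2* and *COL3A1*, which were highest in CTL_DMSO, as were *THBS1* and *THBS2*. *PDGFRB* (664.4 against 326.5 to 488.3 in the other libraries), *FBLN1* (1300.7 against 888.0 to 940.5) and *DCN* (76.4 against 31.6 to 50.4) were also highest in CTL_DMSO. *LUM*, *POSTN* and *THY1* did not follow. *LUM* was lowest in CTL_DMSO, at 69.4 against 127.6 to 141.0 in the other libraries. *POSTN* was also lowest there at 14.1, and *THY1* lay between 2497 and 2840 in all 4. The part of these genes in the differences of *THBS1* and *THBS2* was not tested. Chondrocyte genes were present in part. *SOX9* ran between 732.6 and 937.8 normalized counts, while *ACAN*, the main cartilage proteoglycan, did not exceed 8.04. Platelets are a rich source of THBS1 protein. Of 3 platelet genes in the table, *PF4* had at most 3 counts in any library, *ITGA2B* had 24.8 to 32.9 normalized counts, and *GP1BA* had 26.1 in ZNF521_SAG, 39.1 in ZNF521_DMSO and 15.8 in CTL_SAG, against 80.4 in CTL_DMSO.

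*THBS2* was the member that differed most with *ZNF521*. Its normalized count was 122.3 in ZNF521_SAG and 116.3 in ZNF521_DMSO, against 230.1 in CTL_SAG and 303.6 in CTL_DMSO. Both ZNF521 libraries were thus below both CTL libraries, with no overlap. The fitted log2 fold change was -1.16 (standard error 0.193), with an unadjusted p of 4.96e-05 and an adjusted p of 0.178 from edgeR's quasi-likelihood test with treatment as a second term. *THBS1* followed the same order. Its normalized count was 1203 in ZNF521_SAG and 1045 in ZNF521_DMSO, against 1547 in CTL_SAG and 2276 in CTL_DMSO, and again the groups did not overlap. The log2 fold change was -0.75 (standard error 0.182), with an unadjusted p of 0.00123 and an adjusted p of 0.612 from edgeR. Hence 2 of the 4 tested members were lower with an unadjusted p within 0.05, against 3.11% of all tested genes. At an adjusted p of 0.05, 0 of 4 passed, against 0.00668% of all tested genes, which is *ZNF521* alone. DESeq2 also gave 0 members past the adjusted threshold and 2 at the unadjusted threshold. Both ZNF521 libraries lay below both CTL libraries for 2 of the 4 tested members, and for 13.0% of all tested genes.

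Within each treatment the 2 genes were lower with *ZNF521* as well, and the size differed between treatments. In DMSO, *THBS2* was 2.61-fold lower in ZNF521 cells (exact 95% interval 2.10 to 3.27, counting error only) and *THBS1* was 2.18-fold lower (2.02 to 2.35). In SAG, *THBS2* was 1.88-fold lower (1.51 to 2.34) and *THBS1* was 1.29-fold lower (1.19 to 1.39). The intervals of *THBS1* in DMSO and in SAG did not overlap. A decrease of at least 1.5-fold was seen for 2 of the 4 tested members in DMSO, where 8.76% of all tested genes were as low, and for 1 of 4 in SAG, where 2.87% were. On the log2 scale, the ratio in SAG minus that in DMSO was 0.76 for *THBS1* (95% counting interval 0.61 to 0.91) and 0.47 for *THBS2* (0.04 to 0.91). With 1 library per condition these differences have no test beyond counting error.

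**Figure D2:**
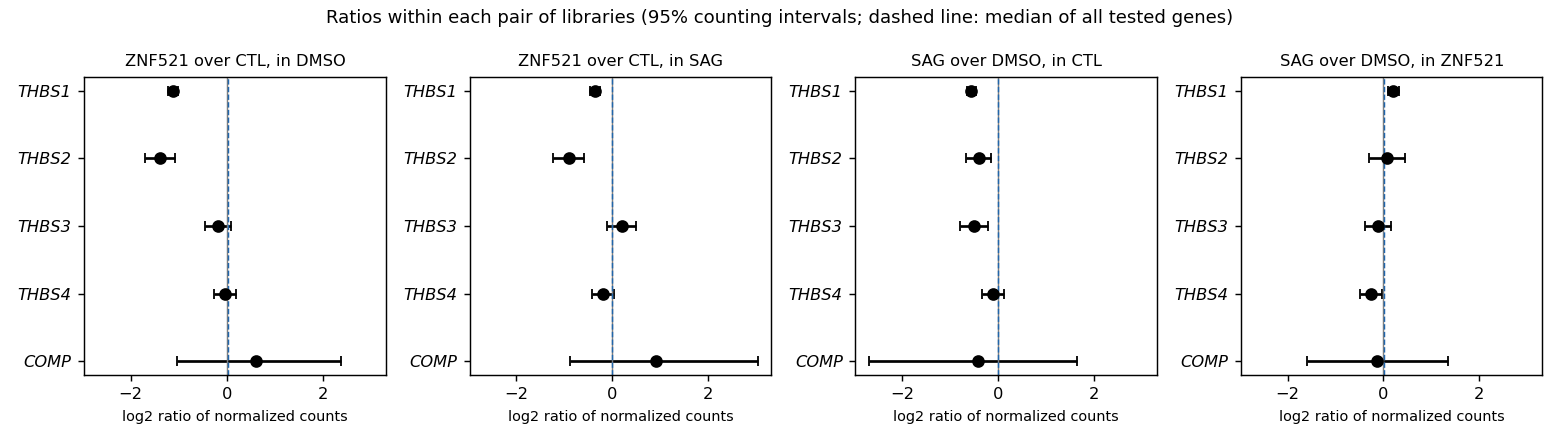
Log2 ratios of normalized counts in the 4 pairs of libraries, with exact 95% intervals that cover counting error only and a dashed line at the median of all tested genes. *THBS1* and *THBS2* lie left of 0 for ZNF521 over CTL in both treatments, at -1.12 and -1.38 in DMSO and at -0.36 and -0.91 in SAG, while the intervals of *COMP* span 0 in every pair.

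The differences of *THBS1* and *THBS2* were both smaller without CTL_DMSO. With that library left out and *ZNF521* as the only term, the log2 fold change was -0.94 for *THBS2* and -0.45 for *THBS1*. On all libraries the values were -1.16 and -0.75, and without CTL_SAG they were -1.36 and -1.03. Fits without a CTL library leave 1 CTL library, which is assumed to vary like the others, and their treatments are not balanced. Their p-values take the spread from the ZNF521 libraries, which differ in treatment, and are not given here. When genes of low count were kept in the fit, the log2 fold change of *THBS2* hardly moved, at -1.15 (standard error 0.191) against -1.16 (0.193). That fit passed 100 genes in all, against 1 with the filter. Among the 100 were *THBS2* (adjusted p = 4.48e-06 from edgeR) and *THBS1* (adjusted p = 0.00402 from edgeR). In the opposite direction, limma after the study's own fold filter, which kept neither *THBS3* nor *THBS4* and gave *THBS1* and *THBS2* the same standard error of 0.728, left *THBS2* at an unadjusted p of 0.115 and *THBS1* at 0.308.

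The pentameric members showed no such order. *THBS4* had 273.4 normalized counts in ZNF521_SAG and 327.2 in ZNF521_DMSO, against 313.5 in CTL_SAG and 335.7 in CTL_DMSO. The groups overlapped. The fitted change was -0.13 on the log2 scale, with a standard error of 0.164 and an adjusted p of 0.988 from edgeR. *THBS3* had 197.4 in ZNF521_SAG and 214.0 in ZNF521_DMSO, against 172.5 in CTL_SAG and 243.3 in CTL_DMSO, so that both ZNF521 libraries lay between the CTL libraries. Its fitted change was -0.01, with a standard error of 0.183 and an adjusted p of 0.997 from edgeR. In DMSO *THBS3* was 0.880-fold the CTL level (0.727 to 1.06) and in SAG 1.14-fold (0.929 to 1.41), and both intervals include no difference. *COMP* had 10 counts in ZNF521_SAG and 9 in ZNF521_DMSO, against 4 in CTL_SAG and 6 in CTL_DMSO. It was below the count filter, and its ratio of 1.54 in DMSO had an interval from 0.488 to 5.24, while that of 1.87 in SAG ran from 0.539 to 8.17. No difference in *COMP* was detectable at this depth.

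SAG was compared with DMSO to ask which genes follow the activation of the Hedgehog pathway. No member passed the adjusted threshold, which 0.0401% of all tested genes passed, and 0 of 4 had an unadjusted p within 0.05, against 11.3% of all tested genes. DESeq2 likewise gave 0 members at either threshold. Among the 4, *THBS3* was farthest from 0, at -0.30 on the log2 scale with a standard error of 0.183 and an adjusted p of 0.520 from edgeR. Its SAG libraries (197.4 in ZNF521 and 172.5 in CTL cells) were both below its DMSO libraries (214.0 and 243.3). *THBS4* followed the same order, with 273.4 and 313.5 in the SAG libraries of ZNF521 and CTL cells, against 327.2 and 335.7 in their DMSO libraries, and was fitted at -0.18 with a standard error of 0.164 and an adjusted p of 0.685 from edgeR. Both SAG libraries were below both DMSO libraries for these 2 of the 4 tested members, and for 22.7% of all tested genes.

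For *THBS1* and *THBS2* the SAG and DMSO libraries overlapped, and the fitted log2 fold changes of -0.18 and -0.19 (adjusted p of 0.715 and 0.723 from edgeR) averaged values of opposite sign. In CTL cells *THBS1* was 1.47-fold lower with SAG (1.37 to 1.57) and *THBS2* 1.32-fold lower (1.10 to 1.58). In ZNF521 cells *THBS1* with SAG was 1.15-fold the DMSO level (1.06 to 1.25) and *THBS2* 1.05-fold (0.817 to 1.36). Thus *THBS1* was lower with SAG in one kind of cells and higher in the other beyond counting error. Without CTL_DMSO, both SAG libraries are set against ZNF521_DMSO alone. The log2 fold change for SAG then turned to 0.38 for *THBS1* and to 0.56 for *THBS2*. Without ZNF521_DMSO, both SAG libraries are set against CTL_DMSO alone, and the values were -0.74 and -0.83. Each of these fits leaves 1 DMSO library, which is assumed to vary like the others, and its p-values are not given here. Over the tested members, none was 1.5-fold lower with SAG in either kind of cells, while 10.8% of all tested genes were in CTL cells and 3.67% in ZNF521 cells. *THBS3* was 1.41-fold lower with SAG in CTL cells (1.15 to 1.74) and 1.08-fold lower in ZNF521 cells (0.895 to 1.31).

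**Figure D3:**
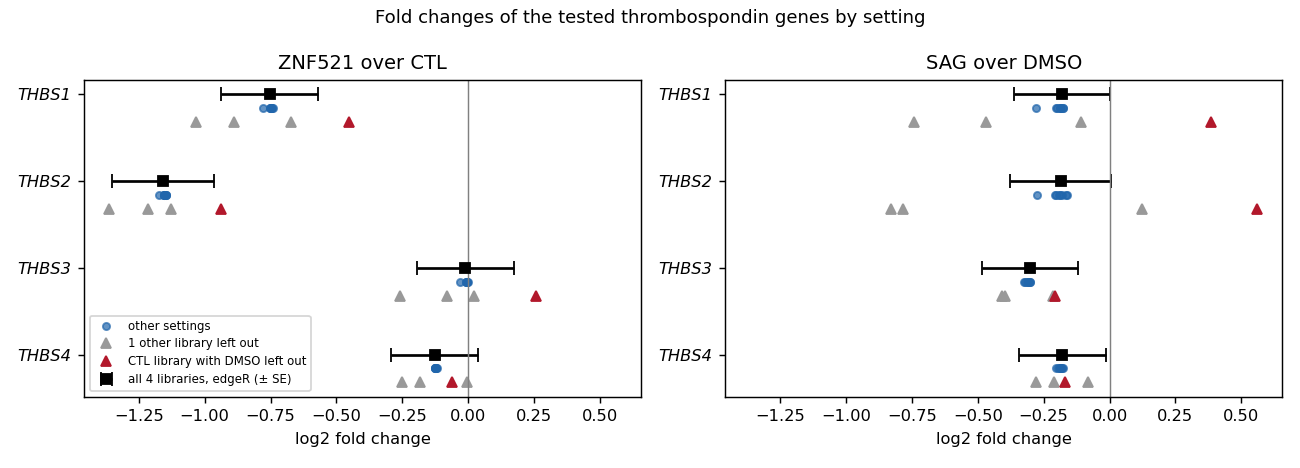
Log2 fold changes of the 4 tested members, with squares and bars for the edgeR fit on all 4 libraries and its standard error, dots for other settings and triangles for fits without 1 library. *THBS2* stays between -1.36 and -0.94 for ZNF521 in every fit shown, and its value for SAG is 0.56 when CTL_DMSO is left out, against -0.19 on all libraries.

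Median ratios moved with the GC content of transcripts in 3 of the 4 pairs, and least for ZNF521 over CTL in SAG. GC content was 45.7% for *THBS1*, 51.5% for *THBS2*, 54.2% for *THBS4*, 56.3% for *THBS3* and 64.7% for *COMP*. *THBS1* and *THBS2* fell in group 3 of 5 groups of rising GC content, and the median log2 ratio of that group for ZNF521 over CTL was -0.05 in DMSO and 0.01 in SAG. *THBS3* and *THBS4* fell in group 4. For SAG over DMSO the median of group 4 was -0.07 in ZNF521 cells and -0.18 in CTL cells, of the same sign as the ratios of *THBS3* (-0.12 and -0.50) and *THBS4* (-0.26 and -0.10). No value was corrected for GC content. Among all tested genes, the ratio of *THBS2* for ZNF521 over CTL lay at percentile 1.04 in DMSO and also in SAG, and that of *THBS1* at percentiles 1.96 and 6.27.

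The genes whose pattern over the 4 libraries was most like that of each member were ranked by the distance between centred log2 profiles, among 9161 genes with a mean of at least 200 normalized counts. For *THBS1* the nearest was *KIF26B*, a kinesin, at a distance of 0.179 log2 units, with 160.3 and 154.3 normalized counts in ZNF521_SAG and ZNF521_DMSO, against 222.2 and 287.5 in CTL_SAG and CTL_DMSO. *FOXJ2*, a forkhead factor, followed at 0.190 and *PMEPA1*, a membrane protein that TGF-beta induces, at 0.197. For *THBS2* the nearest were *ACVR1*, a type I receptor for BMP and activin ligands (0.309), *ADAMTS2*, which trims procollagen (0.350), and *PDGFRB*, a growth factor receptor of mesenchymal cells (0.375). Only 4 genes lay within 0.2 of *THBS1* and 0 within 0.2 of *THBS2*. *THBS3* had 624 genes within that distance, led by *SORBS3* (0.015) and *P3H3* (0.030), and *THBS4* had 1333, led by *ABCB8* (0.021), *PEX10* (0.025) and *HABP4* (0.026). A fixed distance takes in more genes where a member itself varies little, and the highest level was 1.41 times the lowest for *THBS3* and 1.23 times for *THBS4*, against 2.18 for *THBS1* and 2.61 for *THBS2*.

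Receptors of thrombospondins were spread about 0 with *ZNF521*. Of 19 listed, *CD36* was too low to be tested, at no more than 8.04 normalized counts, while *CD47* had 1315 to 1730. Among the 18 tested receptors, 6 were higher and 12 lower. Their median was -0.06 on the log2 scale, and 2 were lower with an unadjusted p within 0.05. These were *ITGA3*, an integrin chain (-0.40), and *LRP1*, an endocytic receptor that clears THBS1 and THBS2 (-0.64). *ITGA3* had 1264.5 normalized counts in CTL_DMSO, against 790.5 to 855.9 in the other libraries. For all 14970 tested genes, 50.6% were lower and the median was 0, and 354 were higher and 466 lower with an unadjusted p within 0.05. With SAG, 11 receptors were higher and 7 lower, around a median of 0.05, while 49.9% of all tested genes were lower. *ITGB3*, the beta chain of the vitronectin receptor that also binds THBS1, had 187.3 and 192.8 normalized counts in ZNF521_SAG and CTL_SAG, against 61.7 and 124.6 in ZNF521_DMSO and CTL_DMSO. Its SAG libraries were both above its DMSO libraries (log2 fold change 1.08, standard error 0.241, unadjusted p of 0.000633). Its partner *ITGAV* was at 0.34 (unadjusted p of 0.0365). *LRP1* was at -0.89, with 1973 and 1922 in the SAG libraries of ZNF521 and CTL cells, against 2302 and 5619 in their DMSO libraries, so that CTL_DMSO alone was high.

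Matrix proteins, proteases and growth factors that bind thrombospondins were mostly lower in both comparisons, though not past the adjusted threshold. For *ZNF521*, 14 of 18 tested were lower, with a median of -0.41, and 8 were lower and 1 higher with an unadjusted p within 0.05, against 466 and 354 of all 14970 tested genes. The higher gene, named after its value was seen, was *MMP9*, a matrix protease (0.82). The lower genes included the collagen chains *COL1A1* (-0.76), *COL3A1* (-0.65) and *COL5A1* (-0.58) and *HSPG2*, the proteoglycan perlecan (-0.60). Each of these was highest in CTL_DMSO. In ZNF521_SAG against CTL_SAG, *COL1A1* (5316 against 4913) and *COL5A1* (4155.1 against 4022.5) were not lower. *HSPG2* was nearly equal (704.5 against 715.0), and *COL3A1* was lower (9351 against 11726). For SAG 15 of 18 partners were lower, with a median of -0.40, against 49.9% of all tested genes. Genes of latent TGF-beta complexes, which THBS1 protein can activate, had medians of -0.36 and -0.33, with 8 of 9 lower each time. *LTBP3*, a latency protein, stood at 1039 in ZNF521_SAG, 1127 in ZNF521_DMSO and 1115 in CTL_SAG, against 2750 in CTL_DMSO. *TGFB2* was different, at 935.6 and 1162 in ZNF521_SAG and CTL_SAG, against 603.0 and 845.4 in ZNF521_DMSO and CTL_DMSO (log2 fold change 0.55 for SAG and -0.41 for *ZNF521*, unadjusted p of 0.00354 and 0.0191). Without CTL_DMSO, which was tried once the values were known, the medians for *ZNF521* were -0.01 for the partners and 0.04 for latent TGF-beta, and those for SAG were -0.08 and -0.07. Then 1 of 17 partners was lower and 1 higher with *ZNF521* at an unadjusted p within 0.05, against 233 and 371 of all 14685 genes tested in that fit.

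Of 38 other proteins listed as carrying type 1 repeats, such as R-spondins and UNC5 receptors, 31 had a match in the count table and 21 were tested. The CCN genes of the list had no match under their current or older symbols, which says nothing about their expression. While 50.6% and 49.9% of all tested genes were lower with *ZNF521* and SAG, 15 and 16 of these 21 were, with medians of -0.13 and -0.21. Among them *RSPO4*, a WNT agonist, was at -0.92 and -1.02, with 46.4 and 43.2 normalized counts in ZNF521_SAG and ZNF521_DMSO, against 38.3 and 155.8 in CTL_SAG and CTL_DMSO, so that CTL_DMSO alone was high. *PAPLN*, papilin, was at -0.36 and -0.58. Without CTL_DMSO these medians were 0.17 and -0.09. Enzymes and chaperones that fold and glycosylate the repeats were near 0, with medians of -0.02 and 0.07 over 11 genes. *HSPA5*, the chaperone BiP, was their 1 gene with an unadjusted p within 0.05 for *ZNF521* (-0.52), against 820 of all 14970 tested genes. It had 3610 and 3181 normalized counts in ZNF521_SAG and ZNF521_DMSO, against 3414 and 6786 in CTL_SAG and CTL_DMSO. Of 6 proteases that cut thrombospondins, 0 were at that threshold for *ZNF521*. For SAG 1 was, *ADAMTS7*, which cuts COMP (-0.60), against 11.3% of all tested genes. *ADAMTS7* had 586 normalized counts in CTL_DMSO, against 281.9 to 337.5 in the other libraries. No gene of these lists passed an adjusted p of 0.05 in either comparison from edgeR.

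**Figure D4:**
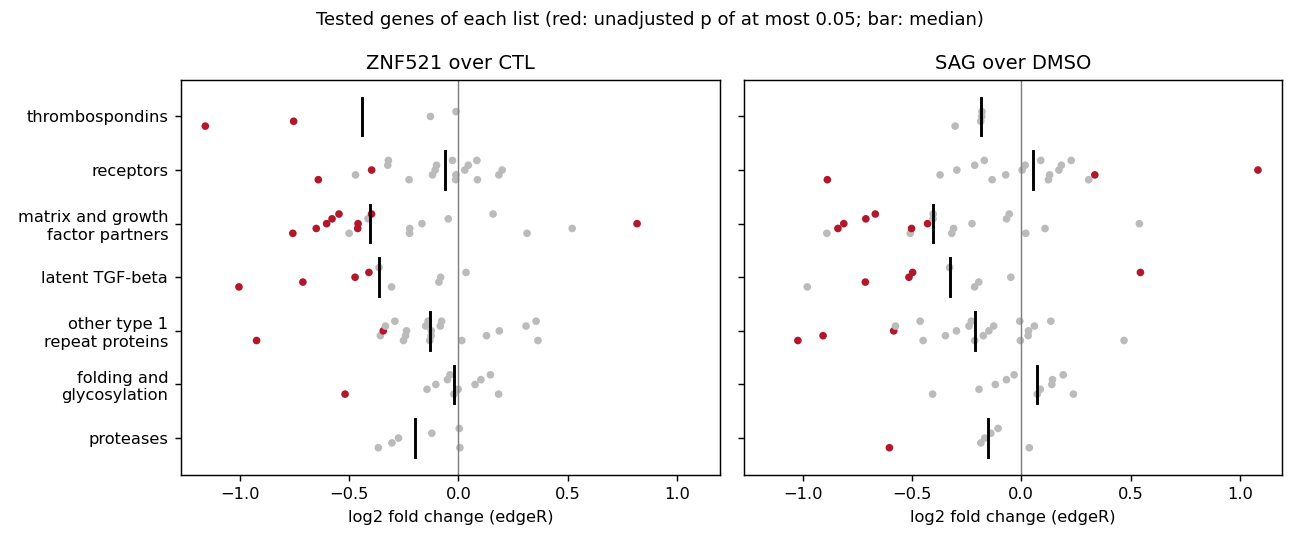
Log2 fold changes from edgeR of the tested genes in each list, 1 point per gene, red where the unadjusted p is within 0.05, with a black bar at the median. The matrix and growth factor partners have medians of -0.41 for ZNF521 and -0.40 for SAG, and the receptors medians of -0.06 and 0.05.

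Some members share their locus with other genes. *FSIP1*, on the opposite strand of *THBS1*, overlaps it by 11110 bases and had between 27 and 43 counts. *MTX1*, which is transcribed away from *THBS3* and overlaps its start by 357 bases, had 483 and 504 counts in ZNF521_SAG and ZNF521_DMSO, against 405 and 381 in CTL_SAG and CTL_DMSO. *MTX3* starts 49 bases from *THBS4* on the opposite strand and had between 356 and 525 counts. *MUC1* and *GBAP1* lie 2672 and 4770 bases from *THBS3* on its strand, with 11 to 30 and 45 to 73 counts. *CRTC1*, 440 bases from *COMP* on the opposite strand, had 762 counts in CTL_DMSO, against 355 to 483 in the other libraries. The antisense genes annotated at *THBS1*, *THBS2*, *THBS3* and *THBS4* were not analysed here. The libraries were strand-specific, but the strand setting of the counting is not given in the sources used here, and reads of overlapping genes on opposite strands may thus be shared.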

How the data were processed

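RNA of DAOY cells was read in 4 libraries, which the study describes as strand-specific, poly-A-enriched and depleted of ribosomal RNA. Per the labels and the paper's methods, the authors used STAR 2.7.0e (version from the submitters' processing notes) to align paired reads of 50 nt to hg38 and to count them. The annotation and strand setting are not given in the sources used here. The deposited raw table holds counts of 20363 genes. The normalized table holds signal values, which are counts that the authors divided by 1 size factor per library (median of ratios, DESeq2) before they deposited them. Its ratio to the raw counts is constant within each library, with factors between 0.887 and 1.19. It lacks 503 genes with a total count of 1, and the same factors were applied to these.

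After removal of genes that did not reach 10 counts in 2 libraries, the whole table was tested with edgeR 4.0.16 in R 4.3.3 (TMM, glmQLFit, glmQLFTest), with vector and treatment as additive terms, 1 residual degree of freedom, a prior of 11.7 and Benjamini-Hochberg adjustment. In fits with both terms, p-values set the effect of vector or treatment against the departure of these 4 libraries from additivity, moderated across genes. They do not measure variation between cultures, since nothing says that any condition was repeated. Fits with 1 term, as when a library was left out, take the spread from libraries of the same group that differ in the other factor. Ratios of 2 libraries have exact Clopper-Pearson intervals and levels exact Poisson intervals (scipy 1.17.1), which cover counting error only. The interval of a difference between log2 ratios is a normal approximation from the counts. Alternatives were DESeq2 1.42.0, RLE factors, library size alone, no count filter, a minimum mean of 50 counts, limma 3.58.1 (with a trend, or after the study's filter), no second term, and each library left out. Scripts were tested on simulated data.

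Gene models came from GENCODE 44, in which 96.3% of genes had a match, and promoters from RefSeq. Motifs were chosen with the sequences in view. Named genes were all members, the 3 nearest patterns per member, and genes within 5 kb that had a match in the count table. Of each list, up to 4 genes with a mean of at least 50 normalized counts and the smallest p were named. Of the nearest patterns, 1 is not reported here. The members and lists were chosen with earlier results of these data known.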

Additional observations from a re-analysis of the deposited data

Results flagged for a closer look

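For 3 members the same contrast gave ratios of opposite sign in the 2 settings in which it was made, and with 1 library per condition none of these differences was tested. The log2 ratio of *THBS1* for SAG over DMSO was 0.20 in ZNF521 cells and -0.56 in CTL cells, and both counting intervals leave out 0. That of *THBS2* was 0.07 in ZNF521 cells, with an interval that spans 0, and -0.40 in CTL cells. The log2 ratio of *THBS3* for ZNF521 over CTL was 0.19 in SAG and -0.18 in DMSO, and both intervals span 0. In each case the lower value was taken against CTL_DMSO, the library that stood apart, and its part in the difference was not tested.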

How the results depend on the processing

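The number of members past an adjusted p of 0.05 for ZNF521, 0 on all libraries, was 2 with no filter on low counts and 0 to 2 when a library was left out. At an unadjusted p of 0.05 it was 2, and 0 under limma after the study's filter. For SAG, 0 members passed, with 0 to 2 (adjusted) and 0 to 3 (unadjusted) when a library was left out. With 1 library left out, the log2 fold change of *THBS3* for ZNF521 ran from -0.26 to 0.26 and was 0.02 without ZNF521_SAG. For SAG, *THBS1* ran from -0.74 to 0.38 and *THBS2* from -0.83 to 0.56, with 0.12 without ZNF521_SAG. Of 92 alternative values of the 8 fold changes, 80 kept direction and side of the adjusted threshold, 7 came to pass it and 5 turned sign. With no filter *COMP* was at 0.74 for ZNF521 (adjusted p = 0.999 from edgeR) and -0.24 for SAG (adjusted p = 0.955 from edgeR). All 40 rescaled pair ratios stayed within their counting intervals. Levels per kb over the longest transcript were 64.6 for *THBS3* and 97.0 for *THBS4*, against 44.7 and 67.9 over merged exons. The count of genes past the adjusted threshold was 1 for ZNF521 and 6 for SAG on all libraries, 100 and 223 with no filter, and between 0 and 2340 and 0 and 4513 with a library left out. At the unadjusted threshold, 820 and 1697 of 14970 genes became 167 and 424 with DESeq2 and 444 and 1404 with no second term. After the study's filter, which kept only 6511 genes, the counts were 339 and 363. Depth limits *COMP*, with at most 10 counts a library. The causes were not tested.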
